A study of Mus musculus with 6 samples.

Results

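The MYC, MAX and MXD network was described in CT26 cells exposed to irinotecan through its 10 named genes: Myc, Max, Mxd1, Mxd3, Mxd4, Mxi1, Mnt, Mlx, Mlxip and Mga. They were chosen by gene name, and all 10 of 10 had a row among the 11604 genes of the deposited table. All 10 also passed the filter on low counts, so 0 were dropped. CT26 is a colon carcinoma line of the BALB/c mouse, labelled wild type (WT) in both groups. The 6 RNA libraries comprised 3 from cells given DMSO, the solvent, and 3 from cells given 10 µM irinotecan (CPT-11) for 24 h. Irinotecan is a prodrug whose product SN-38 traps DNA topoisomerase I on DNA. Neither the amount of DMSO nor the time of that exposure is stated in the labels. Nothing in the labels says that the 3 libraries of a group came from separate cultures, so the p-values speak only for the spread among these libraries, and that spread may be technical. The line stands for 1 tumor cell population grown without host cells, as far as the labels tell.

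MYC, MXD and MNT proteins bind DNA only in pairs, typically joined to MAX through a helix-loop-helix and leucine zipper. The pairs bind E-box sequences near gene starts. MGA also pairs with MAX. MYC-MAX pairs recruit acetyltransferases and elongation factors and raise transcription of genes for growth and ribosome assembly, whereas MXD-MAX pairs recruit the SIN3 corepressor with histone deacetylases to the same sites. MLX is a second hub that pairs with the glucose-responsive factors MondoA (Mlxip) and ChREBP (Mlxipl) and with some MXD proteins. Myc RNA and protein are short-lived, and MYC drives growth in many colon tumors.

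The libraries held 16052326 to 17294496 counts, of which the network genes took 0.0548% to 0.0617%. Of 12 epithelial and colon markers 3 were listed (Krt18, Krt20 and Cdh17), and the defining Epcam, Cdh1 and Cdx2 had no row in the table analysed here. The 3 summed to 96.5 to 103 CPM (counts per 1000000, TMM-normalized) in DMSO and 87.3 to 98.6 CPM with irinotecan, where Cdh17 rose and Krt18 fell. Cdh17 took little of these sums, at 0.9 ± 0.41 CPM in DMSO and 2.4 ± 0.443 CPM with irinotecan (mean and SD, n = 3). All 6 mesenchymal markers were listed, at a summed level of 3670 to 3740 CPM in DMSO and 4270 to 4620 CPM with irinotecan, and 2 of the 6, Vim and S100a4, rose. Of 14 haematopoietic markers 2 were listed, Cd14 and Cd68, summing to 24.9 to 28.4 CPM in DMSO and 31.1 to 34.3 CPM with irinotecan, and both rose, while Ptprc, the pan-leukocyte marker, had no row. Both calls were close to the threshold: that of Cd68 was lost when DMSO replicate 1 or 3 or irinotecan replicate 1 or 3 was left out, that of Cd14 with every such fit but the one lacking DMSO replicate 1, and that of Krt18 when irinotecan replicate 1 or 3 or DMSO replicate 2 was dropped, at adjusted p of up to 0.07, 0.15 and 0.14 (edgeR). Of 6 endothelial markers 0 were listed. The part of these shifts in the results on the network was not tested.

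With irinotecan Myc fell by 29.2%, and 4 genes for its antagonists rose: Mxd4 1.89-fold, Mxd3 1.33-fold, Mxi1 1.31-fold and Mnt 1.21-fold. The other 5 members, among them the shared partner Max, did not pass the threshold of 0.05 on the adjusted p of edgeR's quasi-likelihood test with Benjamini-Hochberg adjustment over 11599 genes. Thus 4 of 10 members were called higher and 1 of 10 lower, where 11.8% of all genes tested were called higher and 10.3% lower, 22.1% in either direction. The 3 irinotecan and the 3 DMSO libraries did not overlap in 6 of 10 members, against 37.1% of all genes tested. The 10 members had a median log2 fold change of 0.14, and the median over all genes was 0.00. In RNA of bulk cultures, fewer cells that carry a transcript and less of it per cell cannot be told apart.

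**Figure D1:**
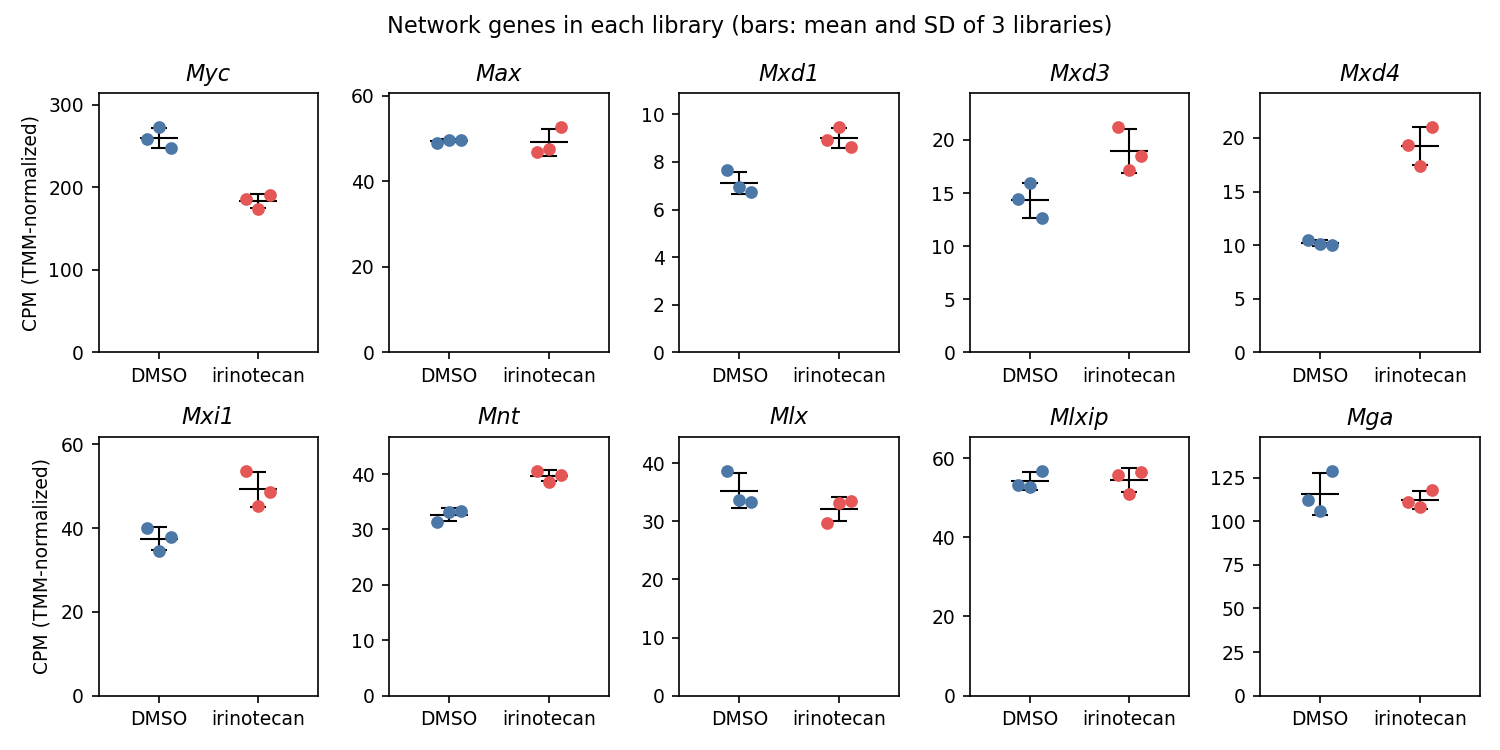
Level of each network gene in every library, in TMM-normalized CPM on linear axes that start at 0. Points are libraries (DMSO blue, irinotecan red), and bars give the mean and SD of 3. Myc was lower in all 3 irinotecan libraries and Mxd1, Mxd3, Mxd4, Mxi1 and Mnt were higher in all 3, while the groups overlapped for Max, Mlx, Mlxip and Mga.

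Myc (ENSMUSG00000022346, chromosome 15, 61857240 to 61862223, GRCm39, plus strand), the activator of the network, stood at 259, 273 and 248 CPM in DMSO replicates 1 to 3 and at 186, 174 and 191 CPM with irinotecan. Every irinotecan library lay below every DMSO library. The means were 260 ± 12.5 and 184 ± 8.61 CPM (SD, n = 3), and the log2 fold change was -0.50 ± 0.051 (SE, edgeR) with an adjusted p of 3.5e-07, the 69th smallest p of 11599 genes. These values rest on 3004 to 4450 counts per library. The call held in all 14 alternative fits, with log2 fold changes from -0.53 to -0.46 and adjusted p from 4.6e-16 to 2.4e-05. Pvt1, the long noncoding RNA gene that lies next to Myc on chromosome 15 (61909835 to 62249945), was at 18, 14.1 and 18.2 CPM in DMSO and 16.4, 18.4 and 18.8 CPM with irinotecan. These groups overlapped, and the log2 difference of 0.09 had a 95% interval of -0.13 to 0.31 (adjusted p = 0.60, edgeR).

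Max (ENSMUSG00000059436, chromosome 12, 76984043 to 77008975), the partner that MYC, MXD, MNT and MGA proteins share, was at 49, 49.6 and 49.6 CPM in DMSO and at 46.9, 47.6 and 52.6 CPM with irinotecan. The groups overlapped, since irinotecan replicate 3 lay above all DMSO libraries and the other two below them. The log2 difference was -0.01 with a 95% interval of -0.15 to 0.13 (edgeR, adjusted p = 0.92). Its sign turned where libraries were scaled by total counts alone (0.02), without irinotecan replicate 1 (0.02) and without irinotecan replicate 2 (0.01).

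Among the MXD genes, whose proteins compete with MYC for MAX and carry the SIN3 interaction domain, Mxd4 moved furthest. Mxd4 (ENSMUSG00000037235, chromosome 5, 34331227 to 34345064, minus strand) was at 10.5, 10.1 and 9.97 CPM in DMSO and at 19.3, 17.4 and 21 CPM with irinotecan. Each irinotecan library was far above the DMSO libraries, whose SD was 0.265 CPM. The log2 fold change was 0.92 ± 0.11 (SE, edgeR adjusted p = 2.2e-06), from 164 to 167 counts per DMSO library and 300 to 368 per irinotecan library, and 14 of 14 alternatives kept the call.

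Mxi1 (chromosome 19, 53298949 to 53364241), which encodes the MXD2 protein, was at 40.1, 34.5 and 37.9 CPM in DMSO and 53.7, 45.3 and 48.7 CPM with irinotecan. The groups did not overlap. Its log2 fold change was 0.39 ± 0.078 (SE, edgeR adjusted p = 0.0011), and all 14 alternatives kept the call, at adjusted p up to 0.015. Mxd3 (chromosome 13, 55472981 to 55477636), a member known from proliferating cells, was at 14.4, 15.9 and 12.6 CPM in DMSO and 21.2, 17.2 and 18.5 CPM with irinotecan. Again no irinotecan library was as low as any DMSO library, though the nearest pair of libraries differed by little. The log2 fold change of 0.41 ± 0.11 (SE, edgeR adjusted p = 0.010) was lost as a call without irinotecan replicate 1 (0.32, adjusted p = 0.087) and kept in the other 13 alternatives. Mxd3 shares 105 bases of its span with Prelid1 on the opposite strand, a gene at 537 and 548 CPM whose own log2 fold change was 0.03 (edgeR, adjusted p = 0.74). Whether the libraries keep strand is not stated in the labels, so reads of that stretch cannot be assigned to either gene.

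Mxd1 (chromosome 6, 86624024 to 86646143), the founding MXD gene that is linked to differentiation in blood and epithelia, was at 7.66, 6.93 and 6.75 CPM in DMSO and 8.91, 9.46 and 8.63 CPM with irinotecan. The groups did not overlap, yet it missed the threshold. The log2 difference was 0.34 ± 0.13 (SE), with a 95% interval of 0.06 to 0.62, an unadjusted p of 0.018 and an adjusted p of 0.072 (edgeR). In 13 alternatives the adjusted p ran from 0.052 to 0.18, and 0 of them called it. It had the fewest counts of the network, 111 to 163 per library.

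Mnt (ENSMUSG00000000282, chromosome 11, 74721746 to 74736551), which encodes a widely expressed MAX partner that also carries a SIN3 interaction domain, was at 31.3, 33.2 and 33.4 CPM in DMSO and 40.6, 38.6 and 39.9 CPM with irinotecan. The 2 groups were apart, with small spread in each. The log2 fold change was 0.28 ± 0.073 (SE, edgeR adjusted p = 0.0086), and all 14 alternatives kept the call, the weakest at an adjusted p of 0.041 without irinotecan replicate 1. Mga (chromosome 2, 119727709 to 119800062), a large repressor with a T-box beside its helix-loop-helix, was at 112, 106 and 129 CPM in DMSO and 111, 108 and 118 CPM with irinotecan. The groups overlapped, and DMSO replicate 3 was the highest of the 6. The log2 difference of -0.05 had a 95% interval of -0.18 to 0.09 (edgeR, adjusted p = 0.66).

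On the MLX side, the hub gene Mlx (chromosome 11, 100978103 to 100983033) was at 38.7, 33.6 and 33.4 CPM in DMSO and 29.7, 33.2 and 33.5 CPM with irinotecan. The groups overlapped, and the log2 difference was -0.13 with a 95% interval of -0.31 to 0.04 (edgeR, adjusted p = 0.27). Mlx shares 385 bases with Psmc3ip on the opposite strand, at 14.4 and 12.1 CPM, so part of its reads is uncertain too. Mlxip, which encodes MondoA, was at 53.2, 52.7 and 56.8 CPM in DMSO and 55.7, 51 and 56.5 CPM with irinotecan, a log2 difference of 0.00 with a 95% interval of -0.13 to 0.14 (edgeR, adjusted p = 0.97). The ChREBP gene Mlxipl, a relative outside the 10 members, did rise. It was at 4.52, 5.71 and 5.47 CPM in DMSO and 8.68, 8.42 and 7.66 CPM with irinotecan, without overlap, a log2 fold change of 0.66 ± 0.15 (SE, edgeR adjusted p = 0.0033) that kept its call in all 13 alternatives that tested it.

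**Figure D2:**
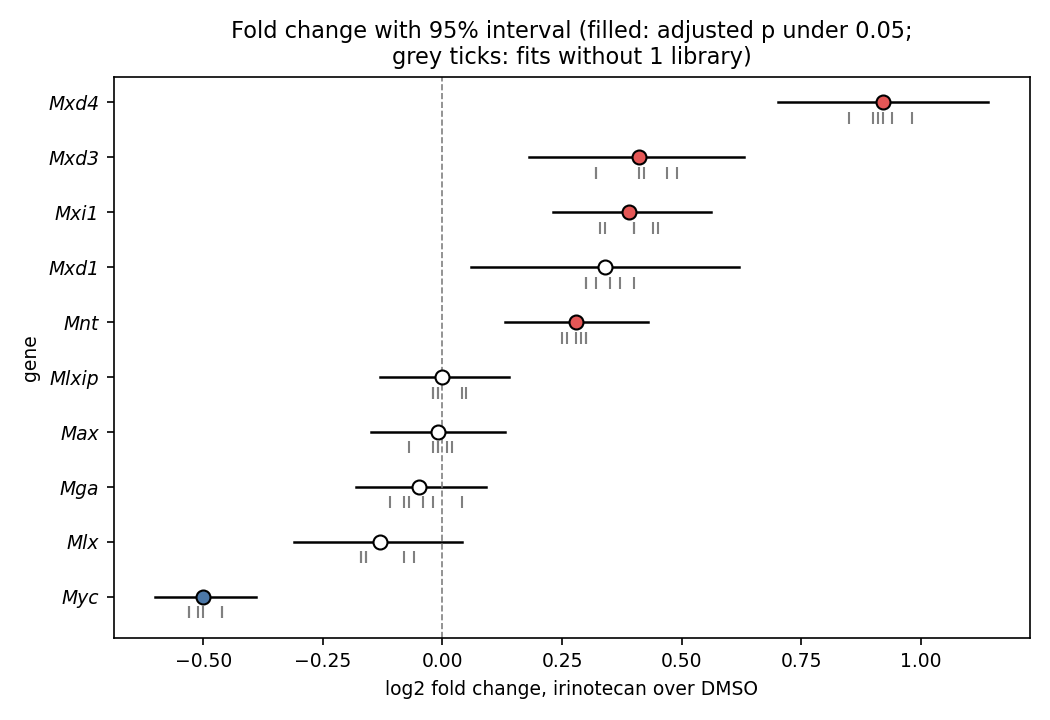
Log2 fold change of irinotecan over DMSO for each network gene, with its 95% interval as a line, and filled points where the adjusted p was under 0.05. Grey ticks show the 6 fits that each leave out 1 library. Myc stands at -0.50 and Mxd4 at 0.92. The ticks of the 5 genes called stay on 1 side of 0, as do those of Mxd1 and Mlx, which were not called.

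Levels can be set against each other only per length, and for this the deposited FPKM values (fragments per kilobase of gene, scaled for depth) were used. In DMSO Myc led at 94.5 ± 3.62 FPKM (SD, n = 3), followed by Mlx at 17.4 ± 1.54 and Max at 13.6 ± 0.145 FPKM. A middle group of Mga, Mnt, Mlxip, Mxd3 and Mxi1 lay between 7.48 and 5.44 FPKM, and each of these overlapped its neighbour in the order over the 3 libraries. Mxd4 at 1.19 ± 0.0323 and Mxd1 at 0.994 ± 0.0686 FPKM came last. With irinotecan Myc was still first at 68.3 ± 3.23 FPKM, and Mlx (16.2) and Max (13.7) still followed without overlap. The middle group was then led by Mnt at 8.65 and Mxd3 at 8.07 FPKM, again with overlapping neighbours. Mxd4 at 2.29 ± 0.217 and Mxd1 at 1.28 ± 0.0598 FPKM remained last. Averaged over the 6 libraries, Myc lay above 95.2% of the listed genes per length, Max above 66.5%, and Mxd1 above 13.4%.

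The balance of activator and antagonist transcripts was read from the same values rescaled to TPM (the sum over listed genes set equal in every library). The ratio of Myc to the sum of Mxd1, Mxd3, Mxd4, Mxi1 and Mnt was 4.53, 4.76 and 4.51 in DMSO and 2.36, 2.50 and 2.58 with irinotecan. The 2 groups were far apart, and the mean ratio went from 4.60 ± 0.139 to 2.48 ± 0.114 (SD, n = 3), 0.539 of its DMSO value. Myc made up 77.1%, 78.2% and 76.1% of the summed transcripts of MAX partners (these 6 genes and Mga) in DMSO and 65.4%, 66.3% and 66.8% with irinotecan. The sum of the 5 antagonists rose from 71.2 ± 0.545 to 96.0 ± 6.29 TPM, and Max was at 47.0 ± 1.25 and 47.8 ± 3.35 TPM. Mga, a repressor that also pairs with MAX, is not in the sum of 5 and was at 25.9 ± 3.35 and 25.7 ± 1.36 TPM. Within that sum the share of Mxd4 went from 5.78% to 8.31%, without overlap, and those of Mnt (33.9% and 31.4%), Mxd3 (29.0% and 29.2%), Mxi1 (26.4% and 26.4%) and Mxd1 (4.83% and 4.67%) overlapped. These are transcript ratios of genes chosen with earlier results known, given as a description with no test, and protein amounts were not measured. On counts without length the ratios were 2.55 and 1.35.

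**Figure D3:**
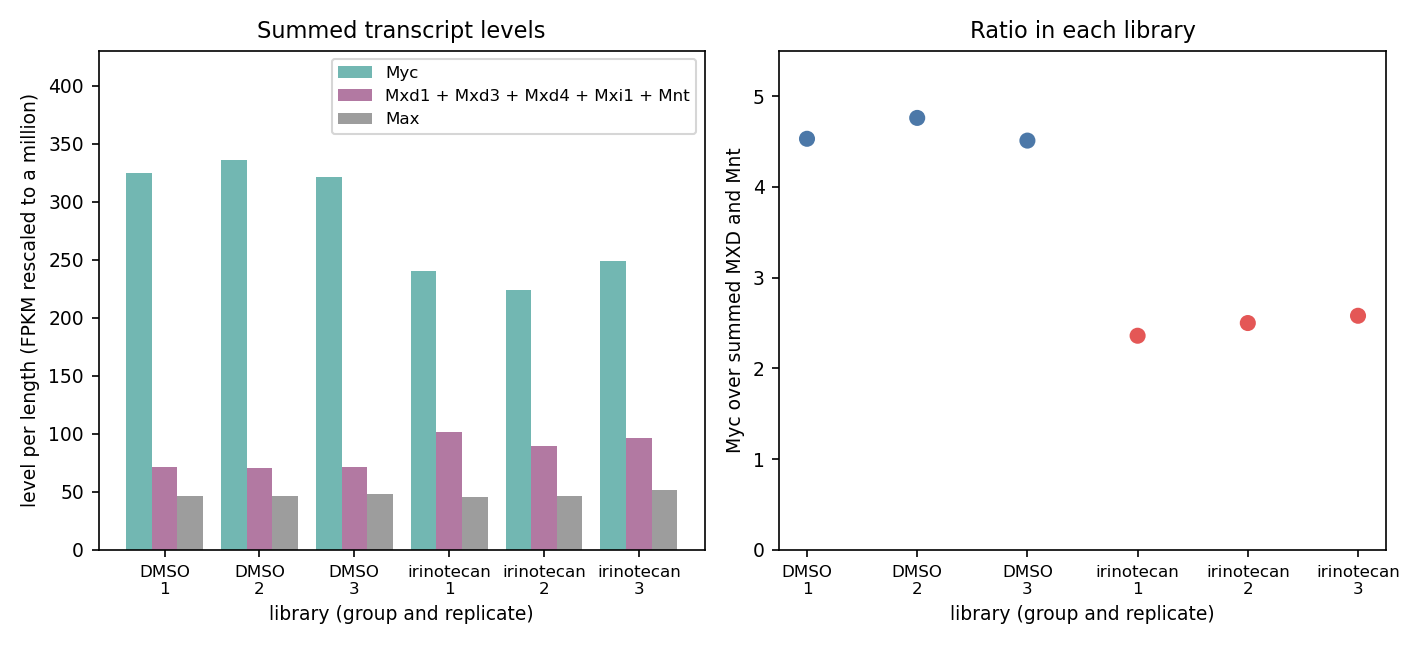
Left, level per length (TPM from the deposited FPKM) of Myc, of the summed MXD genes and Mnt, and of Max in each library, as bars from 0. Right, the ratio of Myc to the summed MXD genes and Mnt, 4.51 to 4.76 in the DMSO libraries (blue) and 2.36 to 2.58 in the irinotecan libraries (red).

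The pairs of this network bind the E-box CACGTG, a palindrome that reads the same on both strands, so the starts of the members were searched for it. RefSeq promoters (GRCm38.p6, a build other than that of the table, from 250 bases before to 50 after the start) were matched for 9 of the 10 members, with 3 starts for Mxi1. Myc was the member without a match, so its start was not searched for this or any other motif. The E-box was found for Mxd4, Mnt, Mlx and Max, and 7.15% of the 32851 promoters of the same length hold it. In the first 3 it lies wholly upstream, at base -219 for Mxd4, -123 for Mnt and -40 for Mlx, and in Max it begins at base -3. Of these 4 genes Mxd4 and Mnt rose and Mlx and Max did not pass, and Mxi1 and Mxd3, which also rose, lack the letters in this window. A match describes the sequence and does not show binding. The 250 upstream bases of the first 3 are shown to place the E-box, in capitals, for 2 antagonists that rose and for the MLX hub.
Mxd4, chr5:34187711-34187960, minus strand: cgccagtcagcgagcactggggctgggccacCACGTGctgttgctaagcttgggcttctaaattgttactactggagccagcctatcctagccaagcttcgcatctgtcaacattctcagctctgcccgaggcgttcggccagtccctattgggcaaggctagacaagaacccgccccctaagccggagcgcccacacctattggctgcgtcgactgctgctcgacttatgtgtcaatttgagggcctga
Mnt, chr11:74830674-74830923, plus strand: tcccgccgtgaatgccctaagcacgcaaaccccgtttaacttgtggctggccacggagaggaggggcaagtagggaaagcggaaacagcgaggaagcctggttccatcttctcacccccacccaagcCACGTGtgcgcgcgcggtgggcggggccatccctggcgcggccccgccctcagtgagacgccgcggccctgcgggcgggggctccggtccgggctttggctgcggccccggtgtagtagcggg
Mlx, chr11:101087040-101087289, plus strand: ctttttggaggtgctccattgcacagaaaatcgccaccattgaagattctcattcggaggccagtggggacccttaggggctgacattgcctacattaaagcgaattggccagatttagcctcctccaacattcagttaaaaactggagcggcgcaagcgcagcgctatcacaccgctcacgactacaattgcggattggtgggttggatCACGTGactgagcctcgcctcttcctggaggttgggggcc

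The GC box GGGCGG, searched on both strands and held by 35.7% of all promoters in the table, was found in 7 of the 9 members matched. It had 8 copies for Mxd3, 6 for Mxd1, 4 for Mnt and up to 4 per start for Mxi1, some overlapping others. Max and Mlx held 0 copies. The CCAAT box, searched as CCAAT on both strands (37.4% of all promoters), was found for Mxd4, Mlxip, Mxd1 and Mlx, and the TATA box TATAAA (13.6% of all promoters) in 0 of the 9. The E-box variant CACGCG, held by 9.27% of all promoters, occurred for Mga alone.

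Of 34 genes that the authors' annotation classes as bHLH outside the network, 3 were higher and 2 lower (14.7%, beside 22.1% of all genes), with a median log2 fold change of 0.05. The genes higher were Mlxipl, Bhlhe40, a stress-responsive repressor, and Ahr, the aryl hydrocarbon receptor. Those lower were Tfe3 and Arntl, the clock factor BMAL1, whose call was lost without irinotecan replicate 1 (adjusted p = 0.10, edgeR). This set was counted after the values were seen, and its difference from the network was not tested. Among the 9 listed of 12 further MYC relatives and E-box factors, Mlxipl rose and Tfe3, a lysosome gene activator, fell by 0.30 on the log2 scale (101 ± 0.854 to 82.1 ± 1.55 CPM, SD, n = 3, edgeR adjusted p = 4.5e-04). Mycn and Mycl, the other MYC paralogs, had no row in the table analysed here. The other 7, Usf1, Usf2, Tfeb, Mitf, Srebf1, Srebf2 and Tfap4, did not pass, with log2 differences from -0.09 to 0.26. The number higher was 2 without DMSO replicate 1.

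Genes known to be activated by MYC fell in large part, by small amounts. Of 38 listed, all of them measured, 21 were lower, 1 was higher and 16 did not pass, where 10.3% of all genes were lower. The median log2 fold change was -0.15 (all genes 0.00), and 32 of 38 were negative. By library, 32, 29 and 34 of the 38 lay below the DMSO mean in irinotecan replicates 1 to 3. In DMSO replicates 1 to 3 the counts were 13, 15 and 29, so DMSO replicate 3 matched irinotecan replicate 2 in this count. Srm, spermidine synthase, was at 545 ± 29.3 CPM in DMSO and 445 ± 11.1 CPM with irinotecan (SD, n = 3) and had a log2 fold change of -0.29 ± 0.048 (SE). Ncl, the nucleolar protein nucleolin, fell from 1970 ± 43.3 to 1640 ± 38 CPM (log2 fold change -0.26). Among the other genes past the threshold were those of ribosome assembly (Rrs1, Nop16, Gnl3, Ppan, Mrto4, Fbl and Bop1, -0.38 to -0.18), of mitochondrial folding (Hspd1 and Hspe1, each -0.15) and of translation initiation (Eif4a1 and Eif4e, each -0.14). Not all nucleolar genes passed: Npm1, Nolc1, Polr1b and Imp4 (-0.16 to -0.12) did not. Nor did the cell cycle genes Cdk4, Ccnd2, Cdc25a and E2f1 (-0.11 to 0.07). Metabolic targets divided: Shmt2 (-0.26), the glutamine transporter gene Slc1a5 (-0.23) and Hk2 (-0.17) fell, while Ldha (0.03), Cad (0.06) and Odc1 (-0.01) did not pass. Prps2, which makes the ribose precursor of nucleotides, rose by 0.36 ± 0.058 (SE, 70.7 to 90.5 CPM). Of the genes just named, Rrs1, Nop16, Gnl3, Ppan, Shmt2 and Slc1a5 kept their calls in all 6 fits that leave out 1 library, and Mrto4, Fbl, Bop1, Hk2, Hspd1, Hspe1, Eif4a1 and Eif4e each lost theirs in at least 2 of the 6 (adjusted p up to 0.19, edgeR). The mean of the 38 genes differed from the DMSO mean by -0.12, -0.10 and -0.17 in log2 CPM in irinotecan replicates 1 to 3 and by -0.04 to 0.03 in the DMSO libraries. The number lower was 12 without DMSO replicate 2, 11 without irinotecan replicate 1, 13 without irinotecan replicate 3, and 13 on scaling by total counts alone, which lifts the median of all genes by 0.031.

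Of 9 listed genes of 14 that MYC is known to repress, 4 rose, 2 fell and 3 did not pass, at a median of 0.00, where 11.8% of all genes were higher and 10.3% lower. Thbs1, the angiogenesis inhibitor thrombospondin, rose from 21.3 ± 3.26 to 39.1 ± 6.21 CPM (SD, n = 3) and Cdkn1a, the p21 inhibitor of cyclin-dependent kinases and a p53 target, by 0.66 ± 0.063 (SE) on the log2 scale. Clu and the TGF-beta receptor gene Tgfbr2 rose by 0.66 and 0.33. Gadd45a, a DNA damage response gene, fell by 0.51 (183 ± 8.78 to 129 ± 16.7 CPM, edgeR adjusted p = 3.4e-04) and Fth1, ferritin heavy chain, by 0.16 (adjusted p = 0.022). Ndrg1, Pdgfrb and Cdkn1b did not pass, with log2 differences of -0.09, -0.02 and 0.00. Fth1 missed the threshold when DMSO replicate 1, DMSO replicate 2, irinotecan replicate 2 or irinotecan replicate 3 was left out (adjusted p 0.058 to 0.11), which left 1 gene lower.

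**Figure D4:**
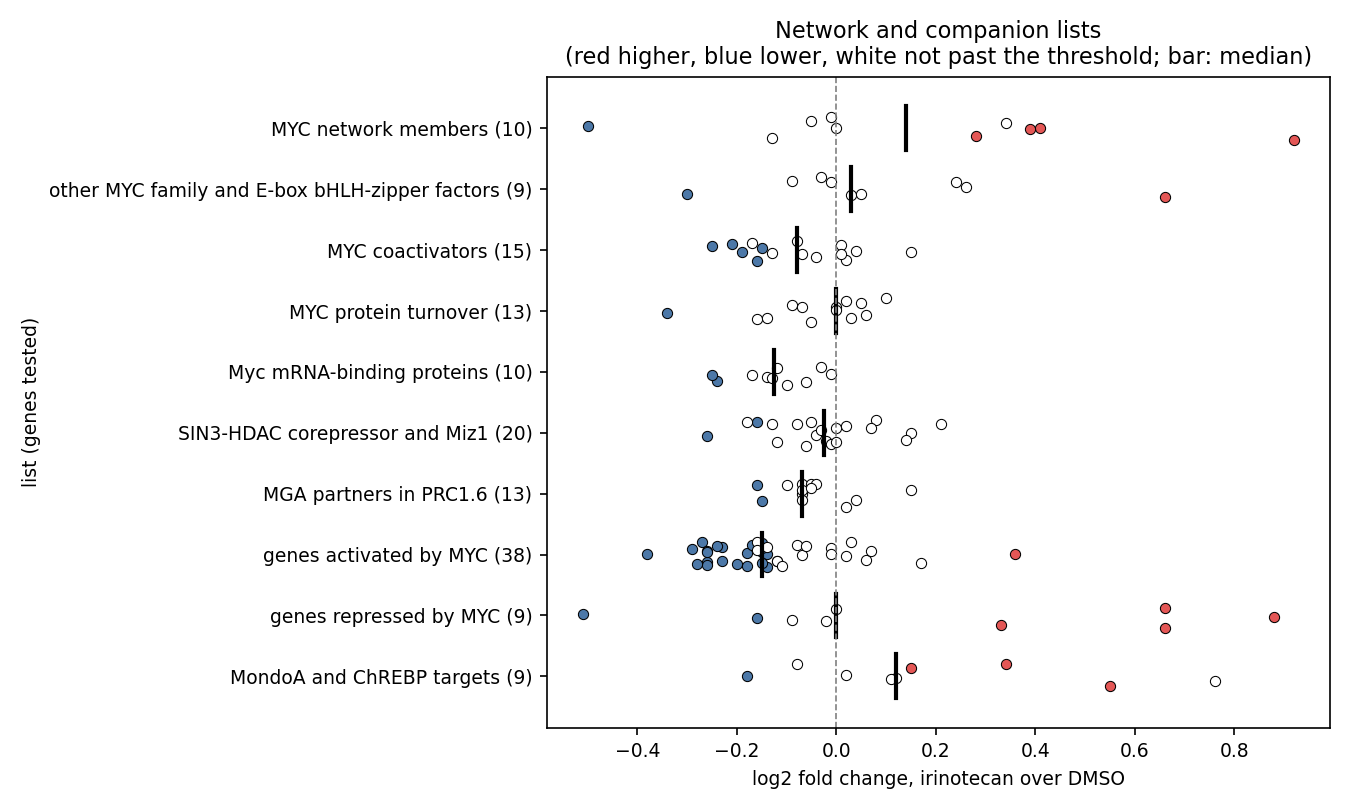
Log2 fold change of irinotecan over DMSO for each gene of the network and of 9 companion lists, with the median of each list as a bar and the number of genes tested in parentheses. Points are red where called higher, blue where called lower and white otherwise. In the genes activated by MYC 21 of 38 are blue, around a median of -0.15, and the network itself spans -0.50 to 0.92.

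Of 15 MYC coactivators measured, 5 fell, 0 rose and 10 did not pass (median -0.08), where 10.3% of all genes were lower and 11.8% higher. Of the 5, Ruvbl2 alone kept its call in all 6 fits that leave out 1 library. Ruvbl2 and Ruvbl1, the paired helicase subunits of chromatin remodellers, fell by 0.25 and 0.19 on the log2 scale (295 ± 15.4 to 247 ± 10.6 CPM and 149 ± 3.53 to 130 ± 5.1 CPM, SD, n = 3). Cdk9, the kinase that releases paused polymerase, Wdr5 and Smarcb1 fell by 0.21, 0.15 and 0.16. The scaffold gene Trrap was at -0.04 and did not pass. Cdk9, Wdr5 and Smarcb1 each lost their calls in 2 to 4 of these fits. Ruvbl1 missed the threshold without irinotecan replicate 3 (adjusted p = 0.053, edgeR). The number lower was 2 without DMSO replicate 2, 3 without irinotecan replicate 1 or 3, and 3 with total counts alone.

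Among 13 genes for turnover of the MYC protein 1 fell and 12 did not pass (median 0.00), a share near the 10.3% of all genes called lower. Usp36, a nucleolar deubiquitinase that stabilises MYC, fell from 130 ± 6.03 to 103 ± 5.89 CPM (SD, n = 3, log2 fold change -0.34, edgeR adjusted p = 1.8e-04). Fbxw7, the ubiquitin ligase subunit that marks phosphorylated MYC for degradation, was at -0.09 and Skp2, another such subunit, at -0.07. The number lower was 2 without DMSO replicate 3 or irinotecan replicate 3 and 1 in the other 4 fits that leave out 1 library. Of 10 genes listed, of 11 fixed, for proteins that bind Myc mRNA, 2 fell, beside the same 10.3%, and all 10 had a negative log2 difference (median -0.12, range -0.25 to -0.01). They were Hnrnpd, the AU-rich element binder AUF1 (-0.25, 265 ± 18.7 to 223 ± 3.59 CPM, SD, n = 3), and Elavl1, the stabiliser HuR (-0.24, 167 ± 8.06 to 141 ± 6.45 CPM). With 2 lower in every fit that leaves out 1 library, this count did not move there.

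MXD and MNT proteins repress through the SIN3-HDAC corepressor. Of 20 listed genes of 21 for that complex and Miz1, 2 were lower and 18 did not pass (median -0.03), a share lower near the 10.3% of all genes, with Sin3a and Sin3b among the 18. Hdac2, a deacetylase, fell by 0.16 (124 ± 1.6 to 111 ± 2.11 CPM, SD, n = 3, edgeR adjusted p = 0.026) and Zbtb17, which encodes the MYC-binding repressor Miz1, by 0.26 (29.1 ± 2.42 to 24.4 ± 0.397 CPM, adjusted p = 0.033). Hdac2 lost its call without any 1 of the 6 libraries (adjusted p 0.052 to 0.10), and Zbtb17 in all of these fits but that without DMSO replicate 3 (0.076 to 0.13). That left 0 genes lower in each of these fits except the one without DMSO replicate 3, which left 1.

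Of 13 partners of MGA in the Polycomb complex PRC1.6, 2 fell and 11 did not pass (median -0.07), a share near the 10.3% of all genes called lower. These were Hdac2, shared with the preceding list, and Wdr5, shared with the coactivators (161 ± 4.52 to 145 ± 3.36 CPM, SD, n = 3, log2 fold change -0.15). Wdr5 was not called when DMSO replicate 2, irinotecan replicate 1 or irinotecan replicate 3 was left out (edgeR, adjusted p 0.075 to 0.10), so that the number lower was 0 there and 1 without any other library. Of 15 germline genes that this complex keeps silent, 1 was listed, Taf7l, at 0.343 to 1.19 CPM, and did not pass (edgeR adjusted p = 0.094).

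Targets of the MLX pairs gave 3 higher, 1 lower and 5 not past the threshold, of 9 listed and 12 fixed, at a median of 0.12. Of all genes 11.8% were higher and 10.3% lower, and the 1 lower of 9 is near that background. Khk, ketohexokinase, rose from 23.1 ± 0.787 to 33.7 ± 2.59 CPM (SD, n = 3, log2 fold change 0.55, edgeR adjusted p = 7.7e-05) and Tkfc, the next kinase of fructose breakdown, by 0.34 (adjusted p = 0.024). Acly, ATP citrate lyase, rose by 0.15 with an adjusted p of 0.048, a call lost with DESeq2, limma-voom, RLE size factors, estimation without the robust option and in 4 of the 6 fits lacking 1 library (up to 0.33, without irinotecan replicate 1). Txnip, the inhibitor of glucose uptake that reports MondoA activity in many cells, fell by 0.18 (225 ± 9.15 to 198 ± 5.29 CPM, adjusted p = 0.0088), and Fasn and Acaca were at 0.11 and 0.02. Without irinotecan replicate 1 the counts were 1 higher and 0 lower, and Tkfc was also lost without DMSO replicate 3 (adjusted p = 0.11).

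By Pearson's r of log2 CPM over the 6 libraries, among 8918 genes at a mean of at least 10 CPM, the genes most like Myc were Tmem135 (0.9993), Zfp111 (0.9977), Rin1 (0.9971), Polr2h (0.9961) and Mybbp1a (0.9957). All 5 were lower with irinotecan, by -0.42 (Polr2h) to -0.23 (Tmem135) on the log2 scale, and Mybbp1a is also among the genes activated by MYC. The most opposite were 9530053A07Rik (-0.9955), Cep55 (-0.9949), P2rx7 (-0.9923), Laptm4b (-0.9923) and Gpnmb (-0.9920), higher by 0.25 (Cep55) to 1.09 (9530053A07Rik). The libraries form 2 treatment groups, so these r values mostly restate the difference between groups, and they describe 6 points only.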

How the data were processed

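RNA of 3 DMSO and 3 irinotecan samples of CT26 cells was analysed, grouped by the labels. The submitters' processing notes name the build GRCm39 and, among other tools, HISAT2 2.1.0 and featureCounts 1.6.2, with no role for each. Per the file headers, the deposited table gives whole-number counts and FPKM per gene for every library. The authors' deposited log2 fold changes and p-values served only as a check of sign: they run opposite to irinotecan over DMSO (r = -1.0 across genes), and directions here come from the counts. Every listed gene had counts in every library, so genes without counts in any library are not in the table. Genes at low counts are listed, such as Taf7l at 0.343 to 1.19 CPM.

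The count test was edgeR 4.0.16 in R 4.3.3: filterByExpr (11599 genes passed, 5 did not), TMM, robust glmQLFit and glmQLFTest, and Benjamini-Hochberg adjustment with a threshold of 0.05. SE is the log2 fold change over the square root of F, and 95% intervals use the degrees of freedom of the fit. Log2 CPM has a prior count of 2. The fit was tested on simulated counts, drawn independently for each library with the dispersions of these data. Such counts cannot show how the fit behaves where libraries share a culture. Depth was 16052326 to 17294496 counts per library, and the overall biological coefficient of variation of 5.57% with 3 libraries per group sets the precision. The 14 alternatives were other scalings, filters and tools (DESeq2 1.42.0, limma 3.58.1), a replicate block and 6 fits without 1 library. Promoters are RefSeq's, on GRCm38.p6.

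The members and lists were chosen with earlier results of these data known. Genes named by rule were the 10 members and Pvt1, up to 2 higher and 2 lower of each list by smallest p, the 5 genes most like and 5 most unlike Myc, and genes overlapping a member. A few listed genes are not reported here and are left out of the list counts. Other genes in the text illustrate their lists and were chosen after their values were seen.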

Additional observations from a re-analysis of the deposited data

How the results depend on the processing

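The direction and side of the threshold of Myc, Mxd4, Mxi1, Mnt, Mxd1 and Mlx held in every alternative that tested them, and Mxd3 lost its call in 1 (0.32 without irinotecan replicate 1). Of members not past the threshold, Max turned sign with total counts only (0.02) and without irinotecan replicate 1 (0.02) or 2 (0.01), and without 1 library the log2 differences ran from -0.07 to 0.02 for Max, -0.02 to 0.05 for Mlxip and -0.11 to 0.04 for Mga. Network members higher were 3 to 4 and members lower 1 without 1 library. Leaving out 1 library gave 1393 to 2362 genes changed, 804 to 1211 higher and 589 to 1151 lower. In the same fits the ranges were 11 to 22 lower for genes activated by MYC, 1 to 2 lower for genes repressed by MYC, 2 to 5 lower for coactivators, 1 to 2 lower for protein turnover, 0 to 1 lower and 0 to 1 higher for the SIN3-HDAC list, 0 to 1 lower for PRC1.6 partners, 1 to 3 higher and 0 to 1 lower for MLX targets, and 1 to 2 higher for other E-box factors. With total counts only, the numbers were 13 lower for genes activated by MYC, 3 lower for coactivators, 0 lower and 1 higher for both the SIN3-HDAC and PRC1.6 lists, and 2 higher for other E-box factors. At a mean CPM of at least 10, other E-box factors had 0 higher, since Mlxipl was not tested, and the SIN3-HDAC and PRC1.6 lists 1 higher each. On CPM without length, the ratio of Myc to MXD and Mnt was 2.55 in DMSO and 1.35 with irinotecan, and the Myc share 54.4% and 42.5%, as gene length no longer enters.

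The replicate numbers are not said to pair samples. Deviations from the group means correlated at 0.25, 0.09 and 0.29 between libraries of the same number, 1 to 3. Between libraries of unlike number they ran from -0.34 to 0.08, below each of these values, though 0.08 and 0.09 are close. The deviations of a group cancel out for each gene, so these correlations depend on one another. Whether the numbers mark a shared culture or day was not tested, and the main fit has no replicate block. With the replicate block 3628 genes changed against 2559 without it, 1820 of them lower; the numbers were 3 higher and 2 lower for other E-box factors, 3 lower for turnover, 6 lower for Myc mRNA-binding proteins, 4 lower and 1 higher for the SIN3-HDAC list and 1 higher for PRC1.6 partners, and no network member gained or lost its call. Causes of these shifts were not tested. Counting depth was low for Mxd1, with 111 to 163 counts per library.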
